A study of Rattus norvegicus with 42 samples.

Results

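Isolated peaks were CAGE peaks that lay far from every other peak of the same genome-wide set. A peak was counted as isolated when no other deposited peak, on either strand, lay within 50000 nt of its nearest edge, and peaks on the mitochondrial sequence were left out. This rule used positions alone and gave 3355 isolated peaks of the 9969 peaks outside the mitochondrial sequence, and 6614 other peaks. Mature Wistar rats, 21 animals in 7 groups of 3, gave 1 soleus and 1 EDL library each, 42 in all. The groups were active controls (C), rats suspended by the tail so that the hindlimbs bore no load for 1, 3 or 7 days (D1, D3 and D7), and rats returned to the cage floor for 1, 3 or 7 days after 7 days of suspension (R1, R3 and R7). Every phase was sampled in different animals, so that the animals are the replicates and changes over time are differences between rats. RNA came from bulk muscle tissue, and a lower share of a cell type cannot be told apart from less RNA per cell in any value below.

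CAGE (cap analysis of gene expression) captures the capped 5′ ends of RNAs, so that a cluster of tags marks a place where transcription starts and its height follows the output of that promoter. Many genes start from several promoters, and active promoters are often paired with transcription that starts on the opposite strand just upstream. Soleus is a slow postural muscle that loses mass when the limb is unloaded, and EDL (extensor digitorum longus) is a fast muscle of the lower leg. Peaks are given by their position on the rat genome Rnor_6.0 with their strand. Genes, exons and introns at the peaks, base sequences and the marker genes of each muscle were not analysed here.

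Just inside the limit lay chr1:102849856-102850025 on the plus strand, 50069 nt from its neighbour, and chr5:164664886-164665015 on the minus strand, at 50115 nt. Just outside lay chr10:10831717-10831843 on the minus strand, at 49959 nt, and chr1:64446721-64446856 on the minus strand, at 49864 nt. These 4 peaks had mean soleus levels of 5.29, 6.07, 10.6 and 5.02 CPM (counts per 1000000 tags, after scaling between libraries) in that order. At the other end, chr15:75067275-75067603 on the plus strand had no other peak within 7856537 nt, and chrX:51286537-51286959 on the plus strand none within 5865771 nt. Both were well expressed, with 22.02 and 29.4 CPM in soleus and 30.7 and 30.1 CPM in EDL.

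Libraries held 4718621 to 22019390 tags in soleus and 1778712 to 23103236 in EDL, of which 72.4% to 95.9% lay in peaks. Control animal U7 had the lowest share in peaks in both muscles, at 72.4% in soleus and 73.1% in EDL. Replicates of a group differed by far more than sampling noise in every pair. The names of the libraries give 6 sequencing lanes, with the soleus and EDL controls on lane 1 and every R1 library on lane 4. Values below are given as CPM per library, in the order of the animals, U6, U7 and U8 for controls, U24 to U26 for D1, U9 to U11 for D3, U1 to U3 for D7, U18, U20 and U21 for R1, U4, U5 and U16 for R3, and U12, U13 and U19 for R7.

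Isolated peaks were spread over all chromosomes but unevenly. They made up 51.5% of the peaks of chromosome X, 45.3% of chromosome 18 and 43.9% of chromosome 11, against 21.3% of chromosome 10 and 23.9% of chromosome 3. Both peaks of chromosome Y were isolated. The strands were used about equally, with 51.5% of isolated peaks on the plus strand. The median gap to the nearest peak was 128171 nt, against 4594 nt for the other peaks, and the median width was 199 nt against 212 nt.

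Among the deposited peaks, the typical isolated peak was nearly as strong as the others, but very strong ones were scarcer. Over the 21 libraries of a muscle, the median peak had 9.60 CPM in soleus and 8.93 CPM in EDL, against 10.9 and 11.1 CPM for the other peaks. Every deposited peak reached at least 10 tags per 1000000 in some library. The medians of both sets lie near that level, and its part in their closeness was not tested. A peak with no tag in a group thus entered the set through a library of another group. A mean of at least 100 CPM was reached by 167 isolated peaks (4.98%) and by 656 other peaks (9.92%). Isolated peaks together took 8.33% ± 1.68 of the tags in control soleus and 6.28% ± 1.43 in control EDL (SD, n = 3).

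The strongest isolated peaks were active in every library. The one with the highest mean, chr8:66863345-66863602 on the minus strand, had 2409, 2783 and 3009 CPM in soleus controls and 2928, 3316 and 3402 CPM in EDL controls. The peak chr2:14701740-14701949 on the minus strand had 2069, 2272 and 1912 CPM in soleus controls and 997, 1633 and 1429 CPM at R1. The groups did not overlap, but the change did not pass (log2 −0.53 ± 0.29, adjusted p = 0.1513). At chr17:66397373-66397794 on the minus strand, soleus controls had 3439, 2224 and 3489 CPM and EDL controls 927.2, 605 and 842.7 CPM. Every soleus control lay above every EDL control there. The same peak had 631.8, 954.2 and 1264 CPM in soleus at R1, all below its controls (log2 fold change −1.60 ± 0.32 SE, adjusted p = 0.001026).

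Initiation within isolated peaks was somewhat more focused. In peaks with at least 100 tags, the single position with most tags held a median of 24.1% of the tags of an isolated peak in soleus and 24.5% in EDL, against 21.1% and 21.6% in the other peaks. The central 80% of tags spanned a median of 46 nt in soleus and 44 nt in EDL, against 53 and 52 nt. By distance to the nearest peak, the soleus share was 18.7% for peaks within 1000 nt of another, and 22.7%, 22.1% and 22.9% in the bands up to 10000, 25000 and 50000 nt. Isolated peaks had 23.5%, 24.0% and 24.8% in the bands up to 100000, 250000 and 1000000 nt and 26.7% beyond.

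The muscles used the same start position in most isolated peaks. Of the 3206 isolated peaks with at least 100 tags in both muscles, 2750 (85.8%) had their top position at the same nucleotide in soleus and EDL, close to the 85.0% of the other peaks. A distance of over 50 nt between the top positions was seen in 89 isolated peaks (2.78%) and in 275 other peaks (4.43%).

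The surroundings of isolated peaks were not silent. Within 50000 nt on each side, tags on the same strand outside the peak came to a median of 24.5% of the tags inside it in soleus and 27.0% in EDL. On the opposite strand the medians were 12.3% and 14.3%. The other peaks had 237% and 232% on the same strand, which includes their neighbouring peaks. In soleus, 291 of 3342 isolated peaks (8.71%) had more tags around them on the same strand than in them. Counted over both strands, 41 had surrounding tags under 1% of those inside. Summed over all isolated peaks, the surrounding tags of both strands came to 12.4% to 54.8% of the tags inside in soleus. The highest value was in the control library of U7, which was also highest in EDL at 68.7%. Opposite-strand starts in the 400 nt upstream reached 10% of the peak in 123 isolated peaks (3.68%) and in 708 other peaks (10.9%) in soleus. In EDL the counts were 122 and 703. For the other peaks this window can hold a deposited peak on the opposite strand, which the rule excludes for isolated peaks. The difference between the sets thus follows in part from the rule.

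Narrow peaks were more frequent among isolated peaks, with 128 (3.82%) at most 30 nt wide against 105 (1.59%) of the others, a width chosen after the values were seen. Of the narrow ones, 21 of 123 tested (17.1%) passed the test described below in soleus at R1 against control, 20 of them higher, a share below the 19.6% of all isolated peaks and the 23.3% of all tested peaks.

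Some isolated peaks had a partner elsewhere in the genome whose tags rose and fell with theirs over the libraries. Among 2772 isolated peaks with at least 2000 tags over all libraries, 119 (4.29%) had such a partner. It lay on another chromosome, or over 1000000 nt away. With each peak of a pair scaled to its own total, the tags over the 42 libraries differed by a chi-square per degree of freedom under 1.5. The positions of the tags within the 2 peaks overlapped by over 80%. Both limits were chosen after the values were seen, and the ratio of the 2 totals was not limited. Of the other peaks, 190 of 5408 (3.51%) had such a partner. The isolated peaks took part in 134 pairs, 98 of them between chromosomes and 77 between 2 isolated peaks, and the largest set of linked peaks had 10 members.

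Among pairs of isolated peaks within these limits, the one whose tag positions overlapped most was chr14:51439007-51439123 on the plus strand and chr17:36713640-36713756 on the minus strand. The first ranged from 145.6 to 462.1 CPM over the 42 libraries (median 258.4), and the second from 143.8 to 443.8 CPM (median 254.8). Their tags had a ratio of 1.005 and a chi-square of 0.423 per degree of freedom, and their positions overlapped by 99.8%. The log2 ratio of the 2 peaks had an SD of 0.038 over libraries, while the first peak alone varied with an SD of 0.365. A pair with the same features was chr16:70138748-70138862 and chr9:96558019-96558133, both on the minus strand (chi-square 0.659, overlap 99.8%).

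Of the 5 strongest isolated peaks, chr13:91333986-91334185 and chr7:76980001-76980194, both on the plus strand, ran side by side without meeting the limit. The first had 1097, 1451 and 1394 CPM in soleus controls and the second 1044, 1334 and 1290 CPM. Their ratio was 1.07 and the SD of its log2 was 0.0436, with 94.7% overlap and a chi-square of 5.10. The authors at first let a read map to several places of the genome. Whether the paired peaks share their sequence was not analysed here, and whether reads were shared between them was not tested.

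**Figure D1:**
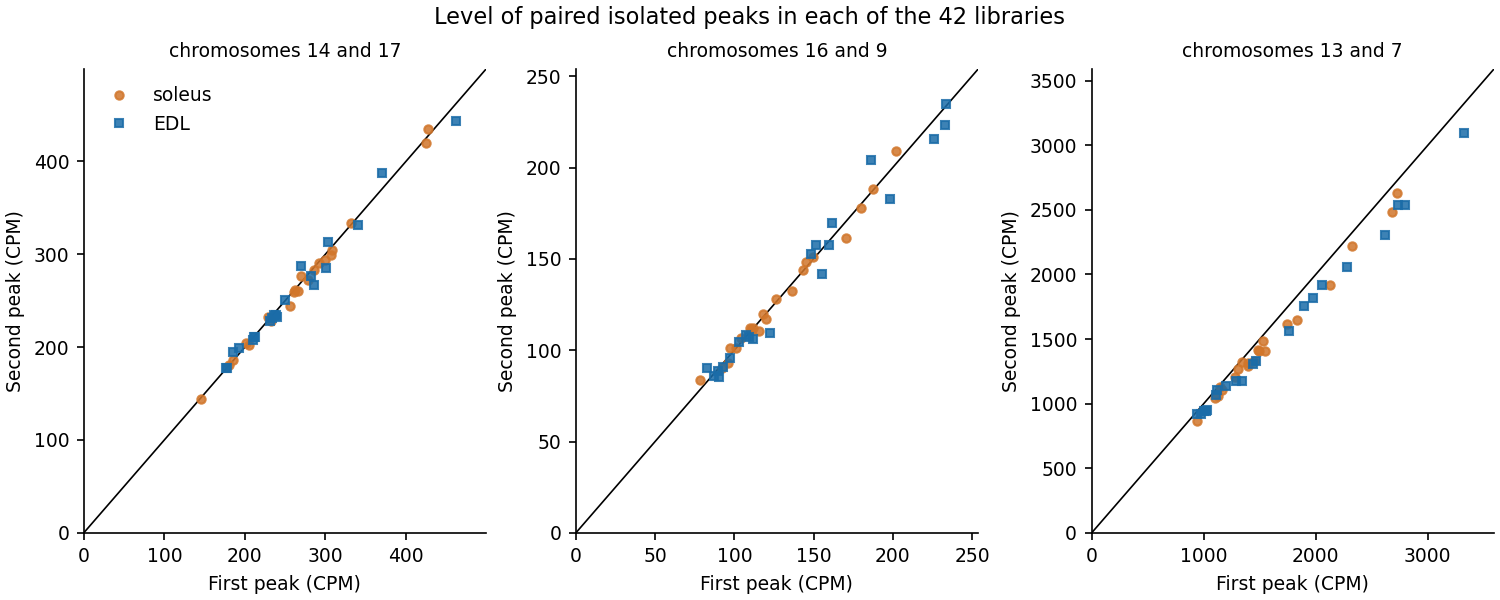
Level of 3 pairs of isolated peaks in each of the 42 libraries, as CPM of the first peak (horizontal) against CPM of the second (vertical), with soleus as circles, EDL as squares and equal levels as the line. The points of the first 2 pairs lie on the line (tag ratios of 1.005 in both), and those of the third lie slightly below it (1.07).

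Peaks were called changed where the adjusted p fell below 0.05 and the level differed by more than 2.38-fold, in edgeR's quasi-likelihood test over all peaks that passed a filter on low counts. That filter kept 3335 of the 3355 isolated peaks in soleus, 3154 in EDL and 3346 in the fit over both muscles, so 20, 201 and 9 were too low to be tested. For each comparison the share called among isolated peaks is read against the share among all peaks tested. Comparisons that share the control libraries are not independent of each other. Peaks named for a comparison were taken from those whose groups did not overlap, so that their separation follows from that rule.

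In the control rats, 302 of 3346 isolated peaks (9.03%) differed between soleus and EDL, against 12.9% of all tested peaks. Of these, 187 were higher in soleus (5.59%, against 6.75% of all peaks) and 115 were higher in EDL (3.44%, against 6.11%). The median level of the 187 was 9.34 CPM in soleus controls and 1.49 CPM in EDL controls, and that of the 115 was 3.70 and 14.3 CPM. The fit paired on the animal (replicate block) called 309 isolated peaks, or 9.24%. With tag totals in place of the scaling factors, 250 were higher and 70 lower, which moved the share of soleus-higher calls from 61.9% to 78.1% (from 52.5% to 64.7% over all tested peaks) and the median of all peaks from 0.10 to 0.47 on the log2 scale. The share called fell with distance over all peaks, from 20.6% within 1000 nt of another peak to 7.86% at 25000 to 50000 nt, and lay at 9.12%, 8.50%, 9.11% and 11.97% in the 4 isolated bands up to and beyond 1000000 nt.

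Several isolated peaks were far stronger in soleus than in EDL. At chr2:154033078-154033439 on the minus strand, soleus controls had 681, 696 and 760.3 CPM and EDL controls 1.77, 16.96 and 16.5 CPM. The groups were far apart, and the log2 fold change was 5.98 ± 0.94 (SE, adjusted p = 9.274e-06). The peak chr14:26662907-26663229 on the plus strand, 2681719 nt from any other, had 14.4, 12.5 and 19.6 CPM in soleus and 0, 0.404 and 0.236 CPM in EDL. Its EDL controls held only 2 tags in all, and the pooled ratio was 133 with a counting interval of 36.6 to 1101.7 (adjusted p = 7.178e-07). The peak chr20:46936748-46936941 on the plus strand had 11.5, 15.3 and 9.50 CPM in soleus and 0.186, 0.404 and 0 CPM in EDL, a pooled ratio of 69.9 (23.7 to 340.3, adjusted p = 4.376e-07). Both stayed low in EDL in every phase, at most 1.42 and 2.19 CPM.

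Soleus-higher peaks could also vary widely between rats. The peak with the largest log2 fold change, chr5:154109163-154109434 on the plus strand, had 244.8, 19.1 and 434.1 CPM in soleus controls and 0.652, 0.808 and 2.12 CPM in EDL controls (7.67 ± 1.23 SE, adjusted p = 1.284e-05). The soleus of U7 was more than 10 times lower than that of U6, yet above each EDL control. In EDL the same peak rose to 40.2, 18.3 and 28.9 CPM at D7 (log2 4.67 ± 0.83, adjusted p = 0.0114), a call that was lost without EDL control U6 (4.20) or U7 (4.55).

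Other isolated peaks were higher in EDL. At chr20:48335286-48335636 on the plus strand, EDL controls had 30.7, 22.2 and 21.2 CPM and soleus controls 0.0664, 0.461 and 0.475 CPM (log2 −6.34 ± 0.88, adjusted p = 1.641e-06). EDL lay above soleus in every phase. The peak chr19:22631861-22632145 on the minus strand had 69.9, 37.6 and 54.9 CPM in EDL controls and 1.79, 1.73 and 2.38 CPM in soleus (log2 −4.79 ± 0.54, adjusted p = 7.357e-08). The peak chr15:8061944-8062072 on the plus strand had no tag in the soleus controls and 3.63, 2.83 and 25.2 CPM in EDL, which was at least 93.9-fold higher against a floor of 3 tags over the group. Its high value came from U8 alone, without which the bound was 37.3-fold, and it was 181.8-fold without U6. Among the peaks named for this comparison, chr1:204160967-204161122 on the minus strand was the weakest call (log2 −3.87 ± 1.35, adjusted p = 0.04495), and it was lost with the replicate block and without any 1 control library.

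**Figure D2:**
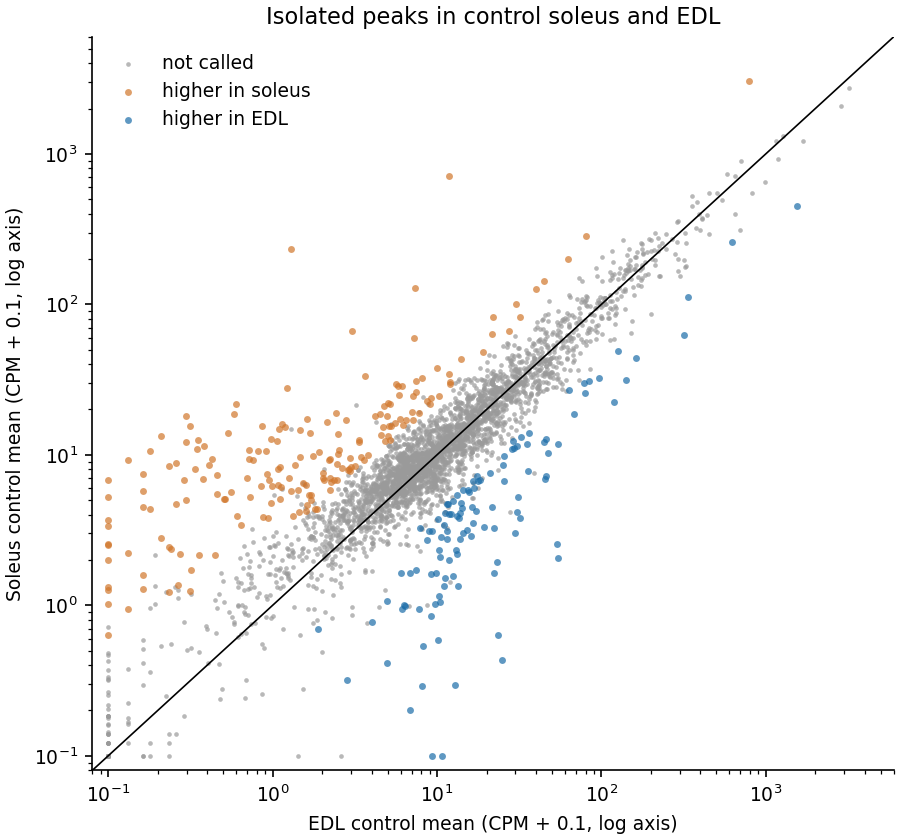
Mean level of each isolated peak in the 3 EDL controls (horizontal) and the 3 soleus controls (vertical), as CPM plus 0.1 on log axes, with called peaks in colour. The 187 peaks higher in soleus and the 115 higher in EDL lie on either side of the equal-level line.

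Over all 21 libraries of a muscle, 12 isolated peaks (0.358%) had no tag in EDL, against 11 of 6614 other peaks (0.166%), and none of either set had no tag in soleus. The EDL libraries were shallower, with a median of 6991564 tags against 11577496 in soleus, and the part of depth in these counts was not tested. Their soleus means were low, 0.723 to 4.47 CPM. The highest, chr3:149800130-149800320 on the minus strand, lay at least 245-fold above the floor of 3 tags over the EDL libraries. Its soleus tags came almost wholly from R1, where U18 was highest, so this bound depends on that library. The opposite extreme was chr2:203108516-203108809 on the minus strand, whose EDL mean was 504.9 times its soleus mean. It had 9.59, 7.27 and 10.8 CPM in EDL controls and 21.4, 10.01 and 13.5 CPM in EDL at R1. Only 3 soleus libraries held any tag there, at 0.150, 0.0565 and 0.114 CPM, so the ratio rests on few tags and its size is uncertain.

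In soleus, more isolated peaks were called on the first day of reloading than in any other phase against control, an order that was not kept with lane as a term (0.0299% at R1 and 0.209% at D1). At R1, 653 of 3335 isolated peaks (19.6%) were called against control, against 23.3% of all tested peaks. Of these, 528 rose (15.8%, against 14.7% of all peaks) and 125 fell (3.75%, against 8.6%). The share that rose was thus near the background, and the share that fell was below it. The median log2 fold change was 0.25 over isolated peaks and 0.05 over all tested peaks. These counts are a description with no test between the sets. DESeq2 called 662 (19.9%, against 25.3% of all tested peaks). Leaving out 1 library gave 15.99% to 20.3%.

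**Figure D3:**
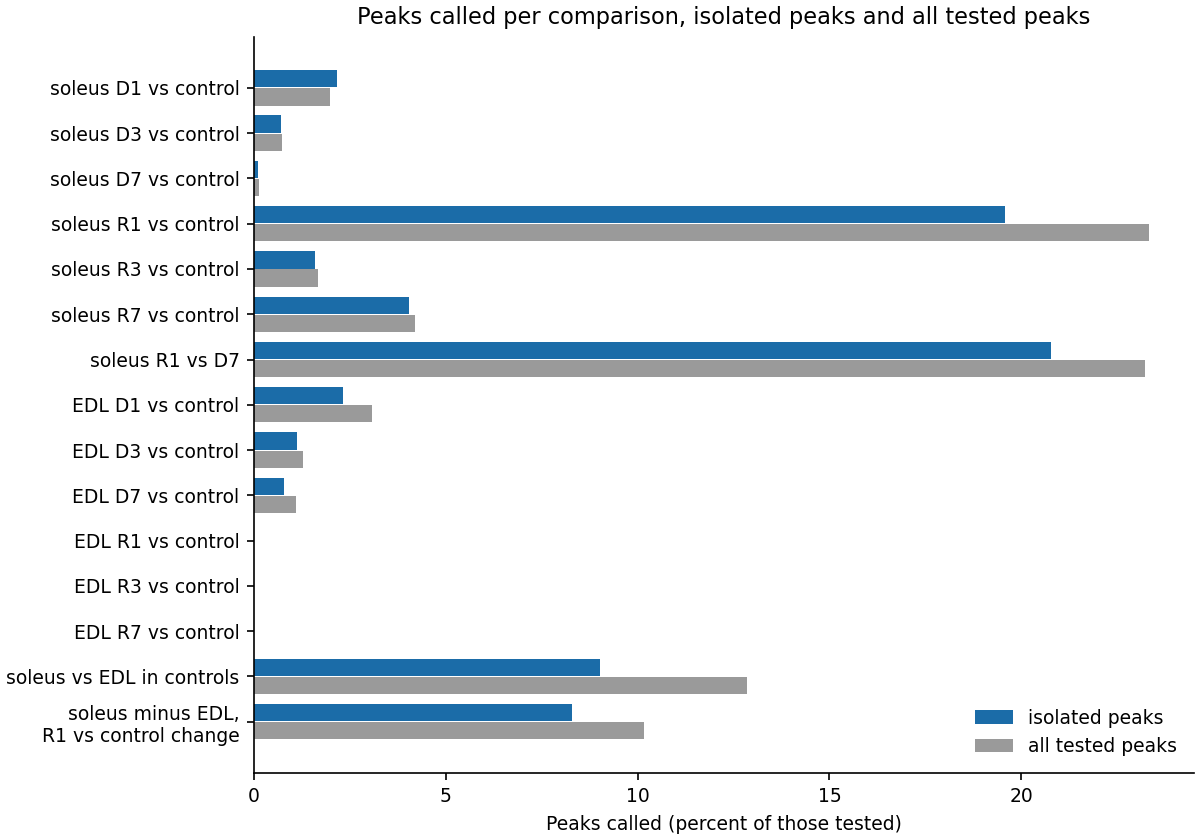
Share of peaks called in each comparison, in percent of those tested, for isolated peaks and for all tested peaks. Soleus R1 stands out at 19.6% and 23.3%, while EDL at R1, R3 and R7 has no edgeR call in either set.

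The low share of falls followed distance gradually and was already present outside the limit. In soleus at R1, falls were called in 16.1% of peaks within 1000 nt of another, 12.7% up to 10000 nt, 7.06% up to 25000 nt and 3.56% up to 50000 nt. Isolated peaks continued at 3.96% up to 100000 nt, 3.91% up to 250000 nt, 2.92% up to 1000000 nt and 4.93% beyond. Rises kept between 13.5% and 17.3% in all 8 bands. The same held within wide bands of the mean level over all 42 libraries, the R1 libraries among them. Under 10 CPM, 3.45% of isolated and 9.56% of other peaks fell. From 10 to 30 CPM the shares were 3.69% and 12.6%, and above 30 CPM 4.85% and 11.95%. Levels could still differ between the sets within a band. Rises stood at 23.1% against 22.3%, 8.83% against 7.92% and 5.22% against 6.80% in these bands. With tag totals in place of the scaling factors, 785 isolated peaks were higher and 43 lower, which moved the share of rises among calls from 80.9% to 94.8% (from 63.1% to 84.8% over all tested peaks), and the median of all peaks from 0.05 to 0.43 on the log2 scale.

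**Figure D4:**
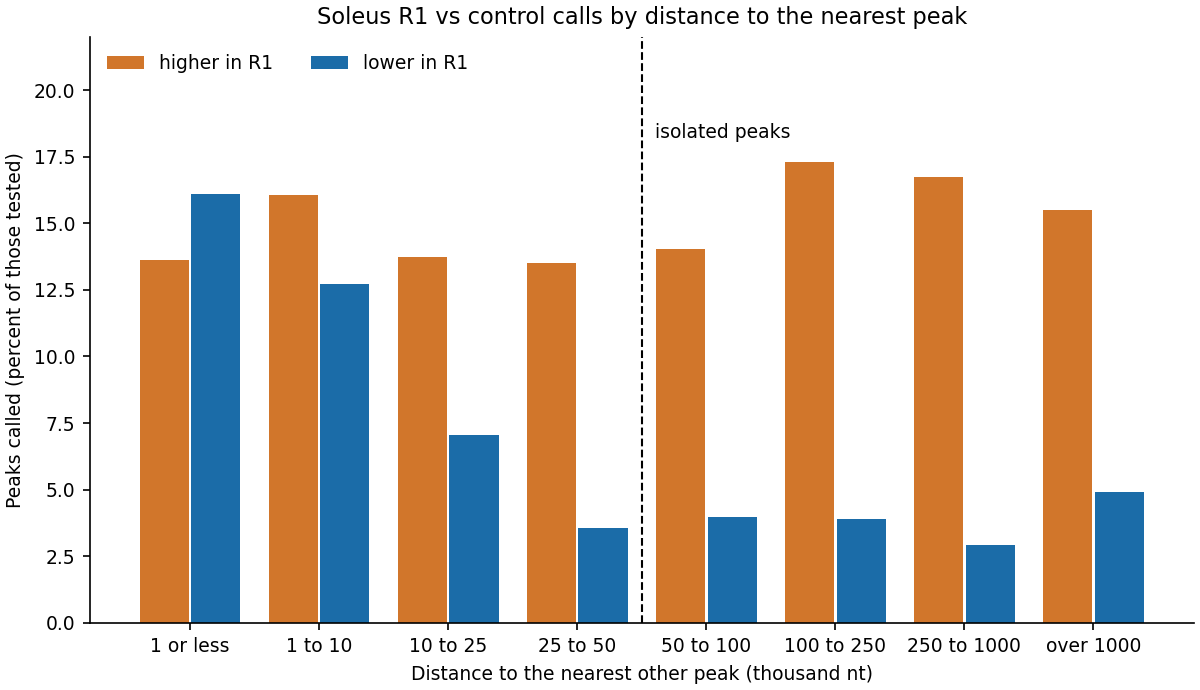
Share of peaks called higher or lower in soleus at R1 against control, in percent of those tested, by distance to the nearest other peak, with isolated peaks right of the dashed line. Lower calls drop from 16.1% within 1000 nt to 3.56% at 25000 to 50000 nt and stay low among isolated peaks, while higher calls change little.

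The sequencing lane of the R1 and control libraries coincided with the groups, so lane and phase cannot be told apart within soleus. In a fit over 42 libraries with lane as a term, 1 of 3346 isolated peaks was called in soleus at R1, and 197 had an unadjusted p under 0.05. The median standard error rose from 0.308 to 0.949, with lane 1 and lane 4 each linked to the other lanes by 1 library. Of the 653 calls, 614 (94.0%) kept their sign. None of the 20 peaks named for R1 kept its call, while all 20 kept their sign, with log2 fold changes of 3.51 to 13.99 for the rises and −6.36 to −0.93 for the falls. Of the 97 calls of named peaks over all comparisons, 27 were kept with lane as a term, 66 were lost and 4 changed sign.

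The peaks called at R1 were chosen by their R1 and control levels, and their levels in those groups follow from that choice. The median level of the 528 peaks that rose was 3.24 CPM in soleus controls, 3.37, 3.92 and 3.23 CPM at D1, D3 and D7, and 13.5 CPM at R1, and it was 5.08 and 5.06 CPM at R3 and R7. Of these peaks, 63 had at most 3 tags over the controls. In EDL their median was 2.74 CPM in controls and 3.11 CPM at R1. The 125 peaks that fell had soleus medians of 14.7 CPM in controls, 8.56, 10.2 and 10.4 CPM during unloading, 4.02 CPM at R1, and 8.96 and 9.30 CPM at R3 and R7. In EDL their medians were also highest in controls, at 15.9 CPM. They were 10.3, 11.05 and 10.2 CPM in EDL during unloading, 10.99 CPM at R1, and 12.4 and 11.7 CPM at R3 and R7. The controls of both muscles lay on lane 1, and the part of the lane in these levels was not tested.

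Compared with D7, the state the reloaded muscle came from, 693 isolated peaks (20.8%) were called at R1, against 23.2% of all tested peaks. There were 564 higher (16.9%, against 15.6% of all peaks tested) and 129 lower (3.87%, against 7.66%). The 3 rises named for this comparison passed the low-count filter through R1 alone, so that they had to differ. How many of the 564 did so was not counted. With tag totals 697 were higher and 67 lower. That moved the share of rises among calls from 81.4% to 91.2%, and from 67.0% to 79.6% over all tested peaks. The R1 libraries are shared with the comparison against control. The D7 libraries lay on lane 3. With lane as a term, 9 isolated peaks were called.

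The 10 largest rises passed the low-count filter through the R1 libraries alone, so that they had to differ, and they are given as a description with no test. The same held for 79 of the 528 rises (14.96%), and for 15.6% of those over all tested peaks. The peak chr3:149800130-149800320 had no tag in the soleus controls or during unloading, 61.8, 15.5 and 16.3 CPM at R1, and at most 0.120 CPM at R3 and R7. U18 was highest, and the rise was at least 315-fold, or 171-fold without U18. At chr14:34354461-34354544 on the plus strand the controls had no tag and R1 had 74.4, 17.1 and 16.3 CPM, at least 360-fold, or 178-fold without U18. There 92.2% of the soleus tags of the peak fell on 1 nucleotide.

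The peak chr7:128588409-128588650 on the plus strand, 1135553 nt from its neighbour, also had no tag in the controls and 17.4, 13.6 and 11.6 CPM at R1. These libraries were close to each other, and the rise was at least 149-fold. All other soleus libraries were at or below 0.120 CPM. The peak chr13:36377453-36377829 on the plus strand rose at least 245-fold, to 40.6, 10.9 and 18.9 CPM. The peak chr8:5734302-5734392 on the plus strand rose at least 194-fold, to 29.7, 18.6 and 9.36 CPM. A very narrow one, chr13:27449917-27449943 on the plus strand, 27 nt wide, reached 27.8, 5.04 and 12.7 CPM, at least 159-fold, or 101-fold without U18.

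Of the remaining named rises, chr12:12025508-12025565 on the minus strand had 1 control tag and 86.5, 29.5 and 19.8 CPM at R1, a pooled ratio of 1359.6 with a counting interval of 243.8 to 53721.8. Without U18 the ratio was 769.6. It was still detected at R7, with 0.168, 2.47 and 3.35 CPM. The peaks chr19:27862779-27862867, chr13:69620392-69620536 and chr19:29134812-29134927, all on the minus strand, rose from no control tag at least 142-, 149- and 135-fold. For the last 2 of these, DESeq2 did not call the rise (log2 9.71 and 9.63, against 10.46 and 10.39 in edgeR).

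A peak that was off in soleus and on in EDL became active in soleus at R1. At chr6:6328318-6328656 on the minus strand, soleus controls had 0.0664, 0.115 and 0.119 CPM and EDL controls 6.70, 6.46 and 7.07 CPM. No tag was found in soleus at D7, and R1 had 69.2, 16.9 and 21.01 CPM, at least 260-fold above D7, or 148-fold without U18. In the soleus fit this peak passed the low-count filter through the R1 libraries alone. Its rise above D7 is therefore a description with no test. In EDL the level at R1 was 2.32, 0.556 and 1.46 CPM, below all 3 EDL controls, a difference that did not pass (log2 −2.06 ± 0.60, adjusted p = 0.2658). The change in soleus minus that in EDL was 10.4 ± 1.03 on the log2 scale (adjusted p = 2.514e-07).

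The falls at R1 were smaller. The largest was at chr9:50762008-50762119 on the minus strand, with 11.3, 13.6 and 19.1 CPM in soleus controls and 0.180, 0.586 and 0.475 CPM at R1 (log2 −5.01 ± 0.75, adjusted p = 8.576e-05). It was back at 37.6, 5.12 and 10.8 CPM at R3. At chrX:23144223-23144458 on the minus strand, 841472 nt from its neighbour, controls had 13.6, 7.84 and 11.5 CPM and R1 had 0.299, 0.703 and 1.51 CPM (log2 −3.57 ± 0.47, adjusted p = 3.046e-05). There the level stayed low, at 2.02, 2.65 and 4.19 CPM at R7. The second largest fall, chr7:34631790-34632106 on the plus strand (log2 −4.02 ± 1.31, adjusted p = 0.02149), was not called without control U8 (−3.65), R1 U18 (−3.48) or R1 U20 (−3.54).

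Lower soleus levels during unloading and at R1 were seen at chr16:2142254-2142574 on the minus strand. Its soleus level was 15.5, 12.1 and 19 CPM in controls, 9.11, 6.58 and 5.72 CPM at D1, 4.30, 4.41 and 7.09 CPM at D3, and 3.15, 5.25 and 3.71 CPM at D7. It was lowest at R1, with 1.14, 1.76 and 2.33 CPM, and had returned by R7, with 12.1, 20.4 and 21.8 CPM. The controls overlapped with none of these groups except R3 and R7. The D1 change did not pass (log2 −1.12 ± 0.34, adjusted p = 0.08572), and D1, D3 and D7 were not tested against each other. The log2 fold change was −1.60 ± 0.34 at D3 (adjusted p = 0.03335), −1.90 ± 0.35 at D7 (0.03643) and −3.05 ± 0.36 at R1 (1.234e-05). The D7 call was lost with tag totals and without any 1 library of controls or D7, with values from −2.13 to −1.72. In EDL the same peak moved the other way at D3, from 6.42, 4.85 and 3.77 CPM in controls to 17.9, 14.4 and 20.1 CPM (log2 1.76 ± 0.37, adjusted p = 0.02115).

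**Figure D5:**
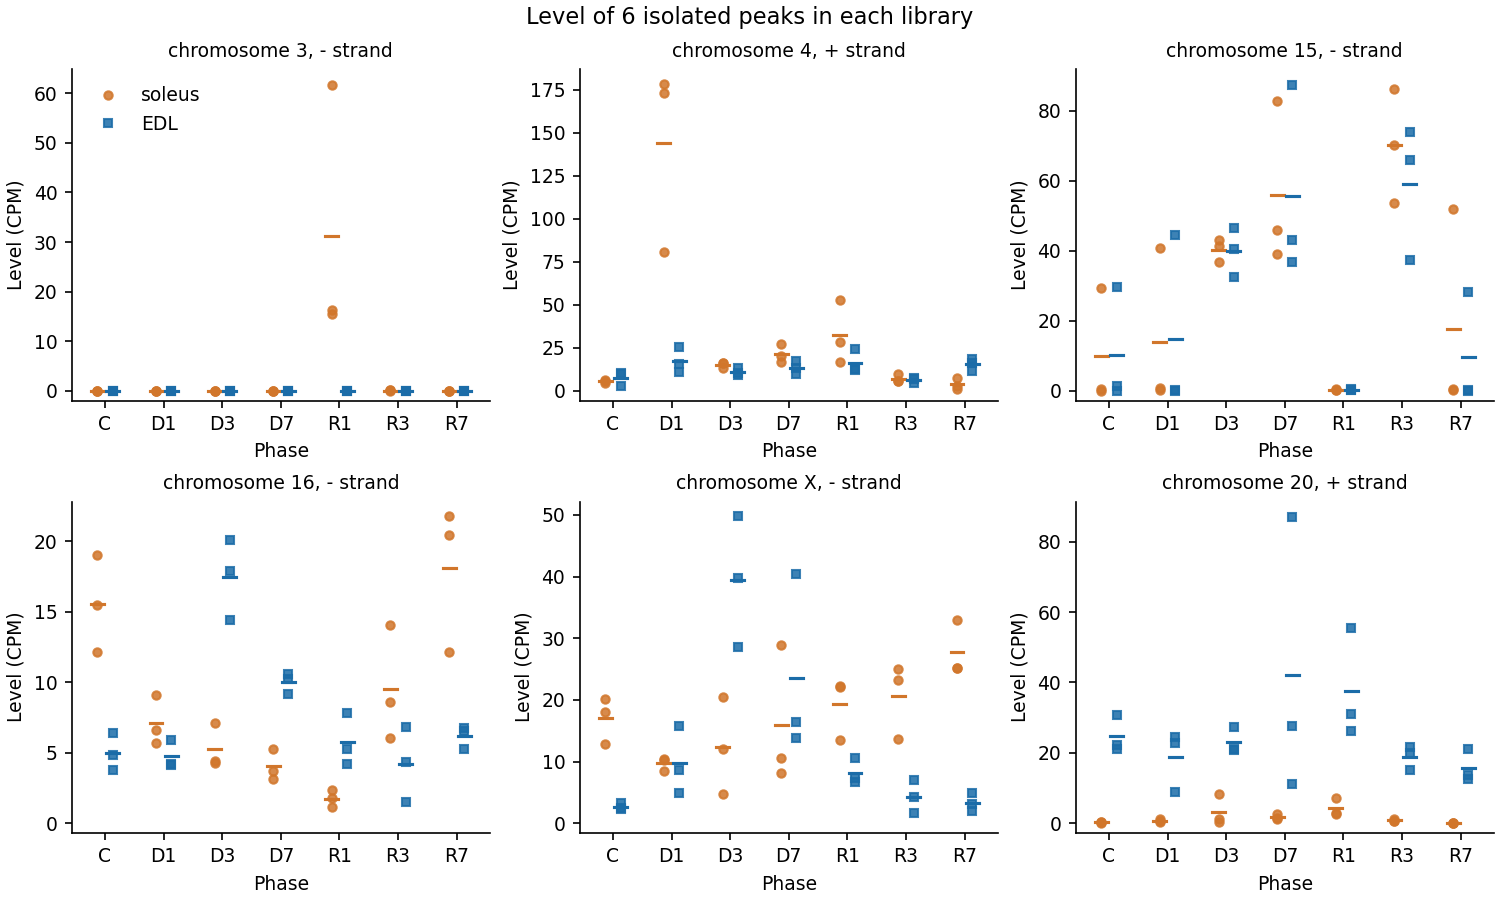
Level of 6 isolated peaks in each library (CPM) by phase, with soleus as circles, EDL as squares and a bar at each group mean of 3 animals. The chromosome 3 peak is seen in soleus at R1 (15.5 to 61.8 CPM) and the chromosome 4 peak is highest in soleus at D1 (80.8 to 178 CPM), while the chromosome 15 peak is either on or off in both muscles of a rat.

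The R1 change differed between the muscles at 277 of 3346 isolated peaks (8.28%), against 10.2% of all tested peaks. Soleus minus EDL was higher at 182 (5.44%, against 5.27% of all peaks tested) and lower at 95 (2.84%, against 4.91%). The higher calls were 65.7% of the 277, and 75.4% with RLE factors, 74.7% in DESeq2 and 74.1% with tag totals. Over all tested peaks they were 51.8%, 60.4%, 59.5% and 54.5%. Among the 182 are peaks that passed the low-count filter through soleus R1 alone, so that they had to differ. How many did so was not counted. Controls of both muscles lay on lane 1 and R1 libraries of both on lane 4, so this difference was within lanes. With lane as a term 258 were called, all 277 kept their sign, and the median standard error went from 0.492 to 0.495. The fit paired on the animal (replicate block) called 322, or 9.62%. Tag totals called 135, or 4.04%, against 6.55% of all tested peaks. Without soleus R1 U18 the share was 4.81%, and without control animal U7 in both muscles it was 5.97%. The fall at chr16:2142254-2142574 differed by −3.22 ± 0.52 (adjusted p = 0.0001412), with 4.21, 7.78 and 5.26 CPM in EDL at R1 against 6.42, 4.85 and 3.77 CPM in its controls.

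After 1 day of unloading, 72 isolated peaks (2.16%) were called in soleus, against 1.97% of all tested peaks. There were 26 higher (0.78%, against 0.853% of all peaks) and 46 lower (1.38%, against 1.12%). Tag totals called 39 (1.17%, against 1.11% of all tested peaks), and the share was lower still with lane as a term. The share was 1.38% without control U6, 0.899% without control U8, 1.02% without D1 U24 and 0.778% without D1 U25. The largest rise was at chr4:148782447-148782582 on the plus strand, where controls had 4.72, 6.57 and 5.94 CPM and D1 had 178.0, 173.1 and 80.8 CPM. The groups were far apart, and 82.3% of the soleus tags lay on 1 nucleotide (log2 4.67 ± 0.53, adjusted p = 0.0003153). This call held under every alternative run for it, the lane term included. At R1 the peak had 52.8, 16.5 and 28.2 CPM, and at R7 it was at 1.26, 3.00 and 7.26 CPM. EDL had 25.7, 15.7 and 10.9 CPM at D1 and did not pass there (log2 1.18 ± 0.45, adjusted p = 0.1711).

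Another early rise lasted to D3. At chr4:49267770-49267952 on the minus strand, soleus controls had 1.13, 0.922 and 0.475 CPM, D1 had 16.5, 10.5 and 9.03 CPM, and D3 had 7.60, 13 and 16.2 CPM. By D7 it was at 2.32, 2.16 and 3.95 CPM, which lies above the controls but far below D3. The log2 fold change was 3.80 ± 0.51 at D1 (adjusted p = 0.001001) and 3.82 ± 0.51 at D3 (0.002095). At chr15:24374578-24374826 on the minus strand, controls had 8.23, 7.03 and 7.96 CPM and D3 had 36.1, 31.0 and 25.8 CPM (log2 2.02 ± 0.28, adjusted p = 0.00343), and R1 was back at 9.99, 9.50 and 7.85 CPM.

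Falls at D1 included chr9:26783256-26783666 on the plus strand, with 80.9, 19.9 and 96.8 CPM in controls and 8.92, 5.44 and 6.47 CPM at D1 (log2 −3.25 ± 0.64, adjusted p = 0.01016). U7 was the lowest control but lay above every D1 library, and the call was lost without control U8 or D1 U25. At D3, 23 isolated peaks (0.69%) were called in soleus, against 0.732% of all tested peaks. Rises were 56.5% of these calls, 45.6% in DESeq2 and 100% (4 of 4) with tag totals, against 56.9%, 50.0% and 91.7% over all tested peaks. The share at D3 was 0.150% without control U6, 0.0899% without control U8, 0.449% without D3 U10 and 0.240% without D3 U9. The peak chrX:39956994-39957524 on the minus strand fell at D3 from 31.2, 21.7 and 35.3 CPM to 8.41, 5.48 and 6.07 CPM (log2 −2.12 ± 0.42, adjusted p = 0.02527), a call lost with tag totals and without 5 of the 6 libraries.

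After 7 days of unloading only 3 isolated peaks (0.09%) were called in soleus, against 0.122% of all tested peaks. DESeq2 called 24 (0.72%, against 1.40% of all tested peaks), and 325 (9.74%, against 11.1%) had an unadjusted p under 0.05. Without any 1 library between 0 and 2 were left. The clearest of the 3 was chr2:96668137-96668295 on the minus strand, with 42.6, 35.6 and 45.1 CPM in controls and 13.4, 13.2 and 8.65 CPM at D7. It stood at 25.2, 20.01 and 28.4 CPM at D3 and at 54.2, 63.6 and 53.4 CPM at R7, so that R7 lay above the controls (log2 at D7 −1.78 ± 0.24, adjusted p = 0.006149). The call was lost with tag totals and without control U8. The rise was at chr4:62380589-62380892 on the plus strand, from 4.05, 3.69 and 3.80 CPM to 11.95, 12.8 and 9.39 CPM (log2 1.58 ± 0.27, adjusted p = 0.02164), a call lost with tag totals and without any 1 of 5 of its 6 libraries (1.52 to 1.60). The same peak was already called in soleus at D1 (log2 1.83 ± 0.27, adjusted p = 0.001332), but not at D3 (0.98 ± 0.27, 0.08933). In EDL that peak also rose, from 4.47, 2.42 and 3.54 CPM in controls to 18.8, 41.7 and 30.6 CPM at D1 (log2 3.06 ± 0.42, adjusted p = 0.0007412). It was called in EDL at D7 too (1.97 ± 0.41, 0.02042), but not at D3 (0.39 ± 0.40, 0.6738).

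Later recovery left fewer changes. At R3, 53 isolated peaks (1.59%) were called in soleus, against 1.66% of all tested peaks. Of these, 45 were higher (1.35%, against 1.22%) and 8 lower (0.24%, against 0.437%). With tag totals the share of rises among the calls went from 84.9% to 98.3%, and over all tested peaks from 73.6% to 94.9%. No call was left without control U6, control U8 or R3 U4, and the share was 0.329% without control U7 and 0.778% without R3 U16. At R7, 135 (4.05%) were called, against 4.19%, with 91 higher (2.73%, against 2.81%) and 44 lower (1.32%, against 1.37%). DESeq2 called 239 (7.17%, against 7.26% of all tested peaks) and tag totals 90 (2.70%, against 3.16%). None was called with lane as a term. The share was 0.659% without control U6 or R7 U12, 1.44% without control U7, 1.89% without control U8, 1.41% without R7 U13 and 10.3% without R7 U19.

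U19 stood apart at several of the peaks that rose at R7. At chr5:79874432-79874568 on the minus strand, soleus controls had 0, 0.115 and 0.356 CPM and R7 had 30.4, 10.2 and 1.96 CPM, the last being U19. The log2 fold change was 6.69 ± 1.21 (adjusted p = 0.009451), and the call was lost without control U6 (5.90). R1 had an even 8.62, 8.15 and 8.97 CPM. At chr18:47512982-47513550 on the minus strand, controls had 0.996, 2.42 and 2.61 CPM, R3 had 28.2, 5.01 and 31.8 CPM and R7 had 46.2, 24.6 and 3.35 CPM. It passed at R3 (log2 3.46 ± 0.85, adjusted p = 0.04285) and R7 (3.72 ± 0.85, 0.02081), and each call was lost without 5 of its 6 libraries in turn.

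In EDL, edgeR called few isolated peaks during unloading and none during recovery, where DESeq2 called 5 at R1 (0.159%, against 0.31% of all tested peaks) and 30 at R3 (0.951%, against 0.984%). The EDL controls all lay on lane 1 and no other EDL library did, so lane and phase cannot be told apart within EDL in any comparison against control. With lane as a term the shares called during unloading were lower still, as listed at the end. At D1, 73 of 3154 (2.31%) were called, against 3.07% of all tested peaks. Of these, 32 were higher (1.015%, against 1.92%) and 41 lower (1.3%, against 1.16%). The share of rises among these calls was 43.8%, and 60.9% with tag totals or 56.4% in DESeq2, against 62.4%, 81.6% and 67.2% over all tested peaks. The share called was 0.504% without control U6, 0.875% without control U8, 0.532% without D1 U25 and 4.35% without D1 U26. At D3, 35 (1.11%) were called, against 1.26%, with 27 higher (0.856%, against 0.963%) and 8 lower (0.254%, against 0.3%). At D3 the share was 0.378%, 0.0313% and 0.188% without control U6, U7 or U8, 0.347% without D3 U10, 4.35% without D3 U11 and 0.284% without D3 U9. At D7, 25 (0.793%) were called, against 1.09%, and rises were 56.0% of these calls or 86.7% with tag totals (54.9% and 93.2% over all tested peaks). Without 1 library the share called was 0.0315%, 0.250% and 0.219% for controls U6, U7 and U8, and 0.126% and 0.347% for D7 U1 and U3.

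No isolated peak passed edgeR's test in EDL at R1, R3 or R7, and none of the 9345 tested peaks did (0%). An unadjusted p under 0.05 was seen in 258, 380 and 147 isolated peaks (8.18%, 12.05% and 4.66%, against 9.62%, 13.85% and 4.37% of all tested peaks), and DESeq2 called 5, 30 and 0. Without R3 U5, 0.875% were called at R3.

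A rise in EDL at D3 and D7 was at chrX:66602429-66602580 on the minus strand, 1375529 nt from its neighbour. EDL controls had 3.26, 2.42 and 2.36 CPM, D3 had 39.8, 49.8 and 28.6 CPM and D7 had 40.4, 13.8 and 16.4 CPM. The log2 fold change was 3.81 ± 0.52 at D3 (adjusted p = 0.001695) and 3.08 ± 0.51 at D7 (0.01016), and the D7 call was lost without control U6 (3.30). Soleus controls had 18.1, 12.8 and 20.2 CPM at this peak, so EDL at D3 exceeded them. At chr17:19056765-19056962 on the plus strand, EDL controls had 0.838, 0 and 1.65 CPM, and D1, D3 and D7 reached 21.7, 31.4 and 8.91, 22.5, 21.7 and 13.5, and 10.7, 21.5 and 6.38 CPM. It passed in all 3 phases (log2 4.41 ± 0.84, 4.36 ± 0.82 and 3.75 ± 0.83, adjusted p of 0.006971, 0.01216 and 0.03191), and each call was lost without EDL control U6. The D3 call was also lost without control U7, and the D7 call without any 1 of 5 of its 6 libraries.

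The peak chr13:109902790-109902978 on the minus strand was called in EDL at D1 and in soleus at R1. In EDL, controls had 0.186, 0 and 0 CPM and D1 had 6.91, 84.7 and 12.1 CPM, a pooled ratio of 160.9 with a counting interval of 44.1 to 1334.7 (adjusted p = 0.01125). The ratio was 102.4 without D1 U25 and 461.6 without D1 U26. That call was lost without EDL control U6, control U8 or D1 U25. In soleus no tag was found at D1, and R1 had 187.5, 46.4 and 54.0 CPM against 1.13, 0.115 and 0 CPM in controls (log2 7.67 ± 1.55, adjusted p = 0.001282). The difference between the muscles did not pass at R1 (7.66 ± 5.37, adjusted p = 0.3829) and was not tested at D1.

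Falls in EDL at D3 included a pair of narrow peaks. At chr12:7927504-7927529 on the plus strand, 26 nt wide, EDL controls had 14.8, 18.98 and 9.43 CPM and D3 had 0.941, 1.51 and 0.611 CPM (log2 −3.78 ± 0.72, adjusted p = 0.01254). Soleus had 14.3, 14.3 and 8.55 CPM in controls and 1.39, 0.735 and 0.759 CPM at D3, which did not pass (log2 −3.59 ± 0.95, adjusted p = 0.08351). At chr6:95095606-95095634 on the plus strand, 29 nt wide, EDL went from 11.3, 35.1 and 13.7 CPM to 0.996, 1.85 and 0.747 CPM (log2 −4.00 ± 0.75, adjusted p = 0.01216). Both EDL calls were lost without control U7 or D3 U9.

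A single isolated peak was either on or off in both muscles of each rat. At chr15:88692545-88692562 on the minus strand, 18 nt wide and 646702 nt from its neighbour, soleus controls had 29.5, 0 and 0.475 CPM and EDL controls of the same animals had 29.6, 0 and 1.41 CPM. At D1 the soleus had 0.970, 40.7 and 0.150 CPM and the EDL 0, 44.4 and 0.371 CPM. At R7 both muscles of U19 were high, at 52.0 and 28.4 CPM, and those of U12 and U13 were at most 0.441 CPM. All rats of D3, D7 and R3 were high and all of R1 low, so that 12 animals had at least 28.4 CPM in both muscles and 9 at most 1.41 CPM in both.

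Of 9969 peaks it was the only one with at least 10 CPM in both muscles of some rats and at most 2 CPM in both muscles of all others, with 3 or more rats on each side, limits chosen after its values were seen. In 5 of the 21 animals the muscles were sequenced on different lanes. The peak was called lower in soleus at R1 than at D7 (log2 −7.46 ± 2.16, adjusted p = 0.01168). Controls, D1 and R7 each held rats with high and rats with low values, and the part of the phase in that call was not tested. With lane as a term the call was lost (−2.31).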

How the data were processed

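Capped 5′ ends were sequenced from 42 libraries by nAnT-iCAGE, a CAGE method without amplification. Per the paper's methods the authors trimmed the reads, mapped them with STAR to Rnor_6.0, aggregated start sites with PromoterPipeline and clustered them into peaks. The submitters' processing notes list Trimmomatic 0.38, BWA and HISAT2, so the aligner behind the files is uncertain. The deposited table holds raw tag counts per peak and library, and the deposited start-site files hold raw tag counts per position; 42 normalised columns of the table were not used. Every count column matched 1 sample, with 0 columns unmapped. The paper reports far more start sites in each muscle, at a permissive threshold, than the deposited table holds peaks.

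Isolated peaks were found from the deposited coordinates. Counts were fitted in R 4.3.3 with edgeR 4.0.16 (filterByExpr, TMM scaling, quasi-likelihood test) over the 21 soleus libraries, the 21 EDL libraries, or all 42 libraries for the comparisons between muscles, with Benjamini-Hochberg adjustment over all 9842, 9345 and 9947 tested peaks. Called peaks had an adjusted p below 0.05 with a log2 change beyond 1.25 in either direction, the limits of the study. Standard errors were worked back from the edgeR test, as the absolute log2 fold change divided by the square root of its F statistic. They are unreliable where a group holds few or no tags. Tables were made with Python 3.11.15, numpy 2.4.6, pandas 2.3.3 and scipy 1.17.1. In simulated data with a log2 change of 2.5 given to 200 peaks, the soleus R1 step recovered 84.5% with 7 wrong calls among 9831 peaks, and the EDL R1 step 81.0% with 10 among 9318. The simulation held no lane or animal effects and no other change between phases. The shares recovered there need not hold for the data.

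Folds against a group without tags used a floor of 3 tags over the group, and ratios from 1 to 3 tags carry an exact 95% counting interval; floors and intervals cover counting error only. Named peaks were the 10 largest rises and falls for soleus R1 and for the control muscles, and 3 each for other comparisons, among called peaks whose groups did not overlap and with a group mean of at least 10 CPM. To these were added the 5 strongest peaks, 4 at the distance limit, and those with the highest and lowest soleus to EDL ratio. Of the 12 peaks without EDL tags the one with the highest soleus mean was taken. Others were chosen after their values were seen, as were the partner, narrow and animal limits and the bands. The members and lists were chosen with earlier results of these data known.

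Alternatives were DESeq2 1.42.0, RLE factors, tag totals as library sizes, no low-count filter, the adjusted p alone, other isolation distances, a lane term, each library left out, and, between muscles, the animal as a block. Leaving out animal U7 in both muscles was added after seeing the data. The animal number marks both muscles of 1 rat. Deviations of the 2 muscles from their group means correlated at −0.34 to 0.557 (median 0.261), over 0.1 in 15 of 21 animals.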

Additional observations from a re-analysis of the deposited data

Results flagged for a closer look

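The change from control to R1 differed between soleus and EDL, by the test of the difference itself, at 8.28% of the isolated peaks tested. Each of the following named peaks passed that test, and the value given is the log2 change in soleus minus that in EDL. It was 13.45 at chr13:27449917-27449943, 12.6 at chr19:29134812-29134927 and 10.4 at chr6:6328318-6328656, where the soleus or EDL groups held few or no tags, so the sizes depend on the fit and are no bounds. The first 2 of these peaks passed the low-count filter through soleus R1 alone, so their test supports nothing. It was −2.72 at chrX:23144223-23144458, −3.22 at chr16:2142254-2142574, −3.54 at chr18:2056824-2057150 and −2.46 at chr2:54006042-54007683, all among the largest falls in soleus at R1. It was −5.38 at chr6:102156242-102156530, −5.32 at chr5:154109163-154109434 and −5.10 at chr5:169431854-169432057, which had low levels in EDL controls. The result at chr13:27449917-27449943 was lost without EDL control U6 (10.3). Those at chr6:102156242-102156530 and chr5:154109163-154109434 were lost without EDL control U6 (−4.22 and −4.87) or EDL R1 U21 (−4.00 and −3.96). That at chr19:29134812-29134927 was lost in DESeq2 (11.1), with the replicate block (12.7), with a lane term, without control animal U7 in both muscles (12.9) and without several single libraries.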

How the results depend on the processing

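Shares are percent of isolated peaks called. With tag totals they were 1.17 for soleus D1, 0.12 for D3, 0 for D7 and 2.70 for R7, 0.729 for EDL D1, 0.476 for EDL D7 and 4.04 for the difference between muscles at R1, and the median isolated peak of an EDL library had 7.30 CPM (median over libraries) in place of 8.83. In DESeq2 they were 1.71, 0.72, 3.78 and 7.17 for soleus D3, D7, R3 and R7, and 3.71, 2.41, 1.62, 0.159 and 0.951 for EDL D1, D3, D7, R1 and R3. With a lane term they were 0.209 for soleus D1, 0 for D3, D7, R3 and R7, 0.0299 for R1 and 0.269 for R1 against D7, and 0.0598, 0 and 0 for EDL D1, D3 and D7. By adjusted p alone they were 1.05, 37.8, 3.12 and 6.15 for soleus D3, R1, R3 and R7, and 39.0 for R1 against D7. At an isolation distance of 100000 nt soleus D7 had 0. Within 10000 nt the tags around isolated peaks came to 5.85% in the median soleus library, in place of 18.1%. The cause was not tested.

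Leaving out 1 library gave 0.778 to 2.01 for soleus D1, 0.0899 to 0.689 for D3, 0 to 0.0599 for D7, 15.99 to 20.3 for R1, 0 to 1.77 for R3, 0.659 to 10.3 for R7 and 16.95 to 21.7 for R1 against D7. In EDL it gave 0.504 to 4.35 for D1, 0.0313 to 4.35 for D3, 0.0315 to 0.719 for D7 and 0 to 0.875 for R3, and between muscles 7.61 to 8.96 in controls and 4.81 to 9.53 for the difference at R1. With the replicate block these last comparisons had 9.24 and 9.62.

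Of 97 named results, the lane term left 27 called, lost 66 and turned 4, which were chr2:195405603-195405690 at R3 (0.53), chr8:87158023-87158424 at R7 (−0.10), chr17:76511386-76511662 at R7 (0.52) and chr1:27723190-27723212 at R1 against D7 (0.11). DESeq2 lost 3, tag totals 14, and the block 2 of 26. Peaks with few tags carry wide counting error.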
